A study of Mus musculus with 2 samples.

Results

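The 39 Hox genes of the mouse genome lie in the clusters Hoxa, Hoxb, Hoxc and Hoxd, and their chromatin was examined in cultured mast cells with and without Dnmt3a. The members were all protein-coding genes whose symbol is Hox, a letter from a to d and a number, 39 of 21631 protein-coding genes in the gene table. All ATAC-seq peaks inside a member's gene interval or within 10 kb of it were taken, on mm10. ATAC-seq maps open chromatin as the places where the Tn5 transposase can insert sequencing adapters. One library came from wild-type (WT) cells and the other from DNMT3A-KO cells, which lack an enzyme that places new DNA methylation. The wild-type mice were littermates, matched for age and sex, and all were females, aged 3 weeks by the series text and 3 to 4 weeks by the growth protocol. Bone marrow of both genotypes was cultured for 4 weeks in IL-3, with no treatment, until more than 95% stained for surface Kit and the alpha chain of the IgE receptor. The labels give neither the knockout allele, any Cre driver, nor the number of mice behind each culture. Each genotype had 1 library, so no test between genotypes was possible and no difference below was set against a spread between animals.

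Hox genes encode homeodomain transcription factors that give cells their position along the body axis. Within a cluster the genes are switched on in the order in which they lie on the chromosome, and in tissues where they are silent the clusters are typically held closed by Polycomb complexes. In blood, Hoxa9, Hoxa10, Hoxa7 and several Hoxb genes are known as genes of stem and progenitor cells, and mature cells express them less. Hox proteins bind DNA together with cofactors of the Meis, Pbx and Pknox families.

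In both libraries the Hox clusters held few peaks, all of them weak. Per length of chromosome, a lower density of peaks than at all protein-coding genes was not detectable (values below). Across the 4 clusters, 6 peaks lay in or within 10 kb of any Hox gene, 2 in the wild-type list of 17170 peaks and 4 in the knockout list of 19684 peaks. None of the 6 was overlapped by a peak of the other list, so 2 regions were wild-type-only, 4 were knockout-only and 0 were shared. A count of 0 of 6 allows a shared share of up to 45.9% (upper bound of the exact Clopper-Pearson 95% interval, which covers counting error only). Over all 23364 regions of both lists 55.1% were shared, 16.9% wild-type-only and 28.0% knockout-only. The knockout-only share of unshared regions, 66.7% at Hox genes (4 of 6; interval 22.3 to 95.7), lay near the 62.3% over all unshared regions.

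The map of the clusters shows where these regions lay, with the nearest regions of the surrounding chromosome.

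**Figure D1:**
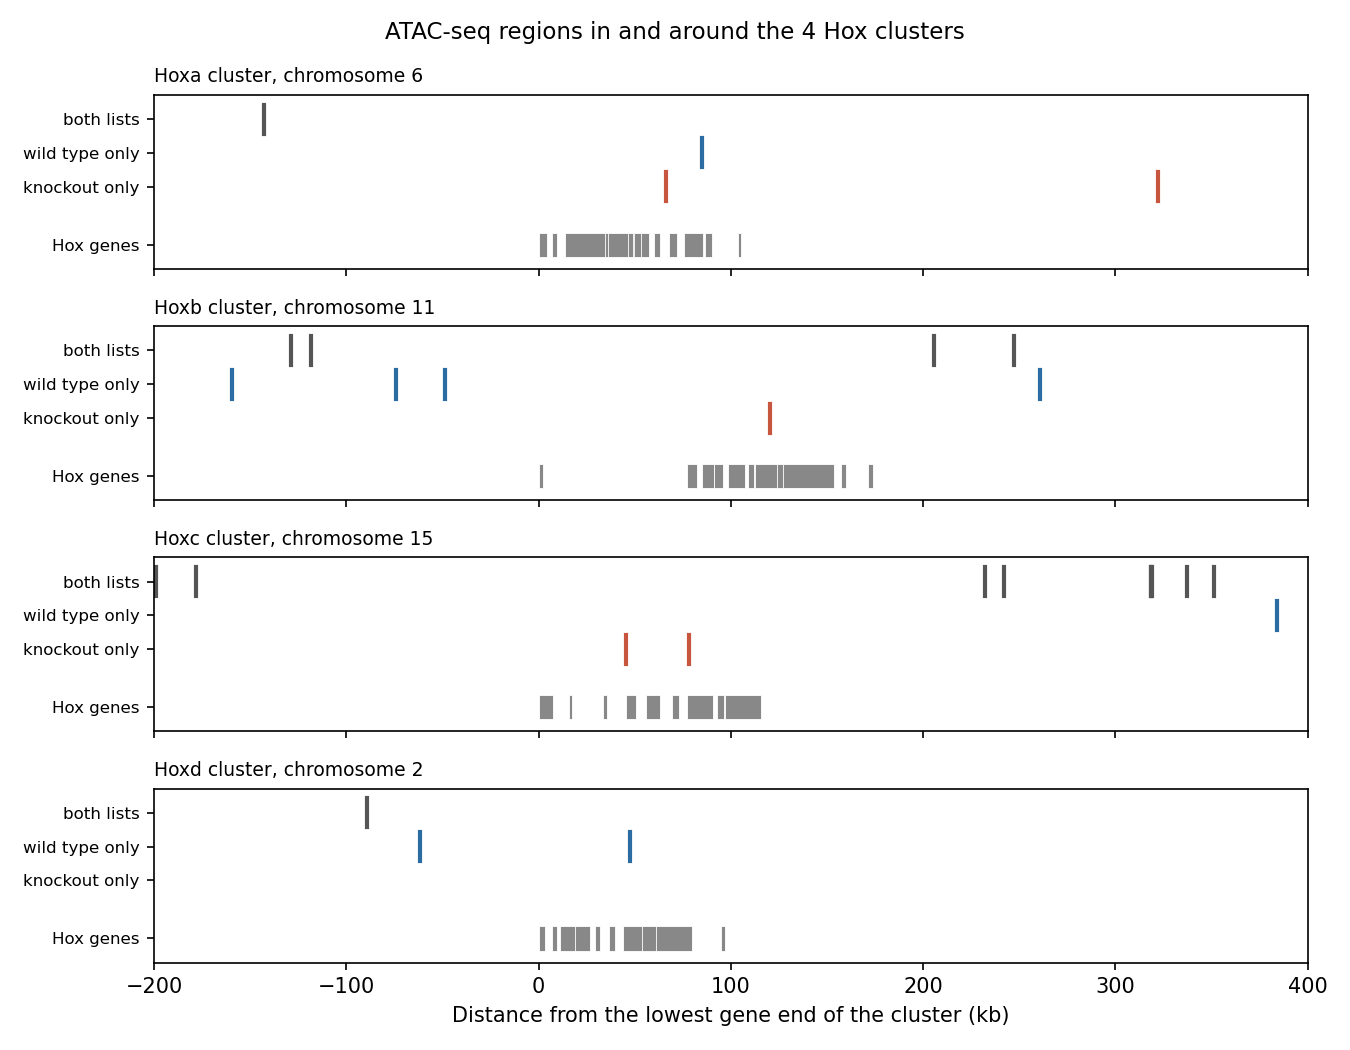
Regions in and around the 4 Hox clusters, as distance in kb from the lowest gene end of each cluster, from 200 kb below it to 400 kb above. Grey bars are Hox genes and ticks are regions in both lists (grey), in the wild-type list only (blue) or in the knockout list only (red); no tick for both lists lies within a cluster.

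The Hoxa cluster (chromosome 6, 11 genes) held 1 peak of each list, both between Hoxa7 and the upper end of Hoxa10, in the part of the cluster best known from blood progenitors. The wild-type peak (52240504 to 52240603) lay inside Hoxa10, and its summit was 293 bp into the gene from the start nearest to it. Its summit had a pileup of 5 overlapping fragments, as the peak caller built them from single reads. The fold enrichment over local background was 5.31 and the −log10 q 5.02. The fold and the −log10 q are the authors' values for the peak, and describe it within its own list. The knockout list held no peak at this site, and its nearest one lay 18.6 kb away. That knockout peak (52221755 to 52221879) lay between genes, 1218 bp from the lower end of Hoxa9 and 3182 bp from Hoxa7. With a fold of 6.31, a −log10 q of 7.15 and a pileup of 6 it had the highest −log10 q of the 6 Hox peaks. Hoxa10 was the only Hox gene in reach of a peak of each list, since the knockout peak lay 9318 bp from it. Hoxa11, 1502 bp from the wild-type peak, was in reach of that peak alone, and Hoxa3 (8688 bp), Hoxa7 and Hoxa9 of the knockout peak alone. Hoxa2, Hoxa4, Hoxa5, Hoxa6 and Hoxa13 were among the genes of the cluster with no peak within 10 kb in either list.

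The Hoxb cluster (chromosome 11, 96194316 to 96368254, 10 genes) held 0 wild-type peaks and 1 knockout peak. The knockout peak (96314763 to 96314862) lay inside Hoxb3 and 3405 bp below Hoxb4, a gene known for expanding blood stem cells when overexpressed. The Hoxb3 interval, 40830 bp long, also holds Hoxb4. The peak itself lay between Hoxb5 and Hoxb4. Its fold was 5.36, its −log10 q 5.28 and its pileup 5. Hoxb5 lay 8642 bp from it. The nearest wild-type peak lay 85.2 kb away. Hoxb1, Hoxb2, Hoxb6, Hoxb7, Hoxb8, Hoxb9 and Hoxb13 had no peak within 10 kb in either list. Hoxb13 stands apart from the rest of its cluster, and the stretch between it and Hoxb9 that is over 10 kb from both was outside the windows and held no peak of either list.

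The Hoxc cluster (chromosome 15, 102921131 to 103036856, 9 genes) held 0 wild-type peaks and 2 knockout peaks. The first (102966589 to 102966688) lay 108 bp below the lower end of Hoxc10, with a fold of 5.26, a −log10 q of 4.92 and a pileup of 5. The second (102999333 to 102999443) lay inside Hoxc6, 1107 bp from its lower end, with a fold of 5.98, a −log10 q of 5.95 and a pileup of 6. Hoxc8 lay 5058 bp from the second peak, and Hoxc11 lay 9888 bp from the first, just inside the limit of 10 kb. Hoxc9, whose nearest peak was 10.3 kb away in the knockout list, fell just outside it. Hoxc4, Hoxc5, Hoxc12 and Hoxc13 also had no peak within 10 kb. The nearest wild-type peaks to the 2 knockout peaks were 186 and 154 kb away.

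The Hoxd cluster (chromosome 2, 74668225 to 74765142, 9 genes) had the opposite count, 1 wild-type peak and 0 knockout peaks. The wild-type peak (74715881 to 74715980) lay inside Hoxd3 and also inside Hoxd3os1, a non-coding gene. The Hoxd3 interval, 36279 bp long, also holds Hoxd4. The peak itself lay between Hoxd8 and Hoxd4. Its fold was 5.41, its −log10 q 5.41 and its pileup 5. The nearest knockout peak lay 137 kb away. Hoxd4 lay 5998 bp and Hoxd8 7948 bp from the wild-type peak. Hoxd1, Hoxd9, Hoxd10, Hoxd11, Hoxd12 and Hoxd13, the last 5 of them genes of limb and genital patterning, had no peak within 10 kb in either list. Hoxd3os1 was the only one of 33 non-coding genes and pseudogenes of the clusters and their 10 kb edges that a peak overlapped, and Hotair, Hottip, Hotairm1 and Hoxa11os had none. The share of all non-coding genes overlapped by a peak was not computed, so whether this count is low cannot be told.

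Per gene, 5 of 39 Hox genes (12.8%; exact binomial 95% interval 4.30 to 27.4) had a wild-type peak in the gene or within 10 kb, against 52.3% of all protein-coding genes. For the knockout list the number was 11 of 39 (28.2%; interval 15.0 to 44.9) against 55.5%. Neighbouring Hox genes share peaks, since their windows overlap, so these genes are not independent and the intervals are too narrow. The 5 wild-type genes rested on 2 peaks and the 11 knockout genes on 4. By position along the axis, 3 of the 8 genes of paralog groups 1 to 3 had a peak of either list. So had 7 of the 15 of groups 4 to 8 and 5 of the 16 of groups 9 to 13. Of all protein-coding genes, 59.2% had a region of either list. The 3 were Hoxa3, Hoxb3 and Hoxd3, whose gene intervals of 44009, 40830 and 36279 bp run over their neighbours. Hoxa4, Hoxa5 and Hoxa6 lie within Hoxa3, Hoxb4 within Hoxb3 and Hoxd4 within Hoxd3. The counts by paralog group therefore depend on the annotated intervals as well as on position. Within 1 kb, the numbers were 2 of 39 for wild type (Hoxa10 and Hoxd3) and 3 of 39 for knockout (Hoxb3, Hoxc6 and Hoxc10), against 43.2% and 46.3% of all protein-coding genes. A shared region lay within 10 kb of 0 Hox genes and of 46.7% of all protein-coding genes.

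Per length of chromosome the contrast was smaller. The joined windows of all Hox genes cover 517 kb, which gave 3.87 wild-type peaks per Mb (exact Poisson 95% interval 0.468 to 13.96) and 7.73 knockout peaks per Mb (2.11 to 19.8). The windows of all protein-coding genes gave 11.1 and 12.7 per Mb, values inside both intervals. With 2 and 4 peaks, a lower density of all peaks at Hox genes was therefore not detectable in either list. Of peaks with a pileup of 7 or more, the Hox windows held 0 in each list (upper bound of the interval 7.13 per Mb). The windows of all protein-coding genes held 8.62 such peaks per Mb in wild type and 9.76 in knockout, above that bound. The limit of 7 lies just above the highest Hox pileup, 6, so this comparison describes the Hox peaks and is no separate test.

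The Hox peaks were weak. Their pileups were 5 and 5 in the wild-type list and 5, 5, 6 and 6 in the knockout list, where the median was 9 in each whole list. They were 100 to 125 bp wide, where the narrowest peaks of both lists measure 100 bp. Within its own list each wild-type Hox peak had a −log10 q below that of 83.3% (Hoxd) or 88.0% (Hoxa) of peaks. Among knockout peaks, 64.9% were stronger than the Hoxa peak, 79.7% than the Hoxc6 peak, 86.7% than the Hoxb peak and 91.1% than the Hoxc10 peak. Peaks of such low pileup were often unshared wherever they lay. At a pileup of 5, 45.6% of 1681 wild-type peaks and 29.02% of 2064 knockout peaks had a partner in the other list, and at a pileup of 6, 39.6% of 2048 knockout peaks. At a pileup of 10 or more the shares were 93.0% and 89.6%. Whether the 6 sites differ between the genotypes or lie near the limit of detection in both was not tested. A site open in few cells and a site slightly open in all cells cannot be told apart in a library made from many cells.

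**Figure D2:**
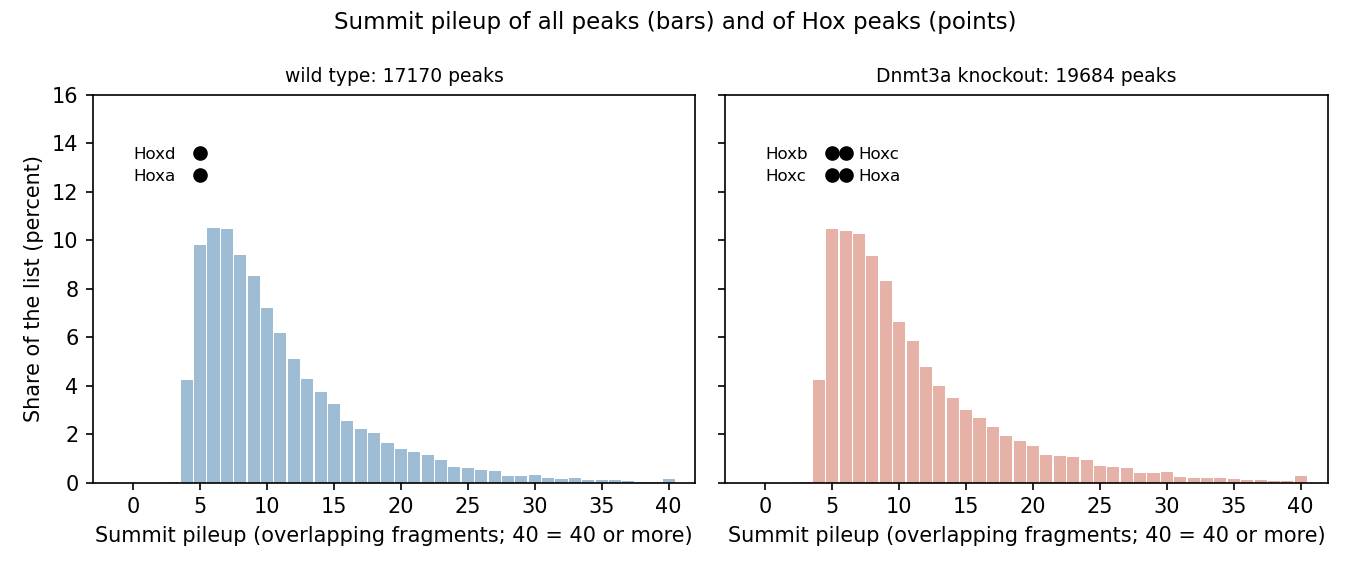
Share of each peak list (percent) by summit pileup, bars, for the wild-type (left) and knockout (right) list, with values of 40 or more in the last bar. Pileup counts overlapping fragments as the peak caller built them from single reads. Black points mark the pileups of the Hox peaks, labelled by cluster; their height on the axis has no meaning, and all lie at 5 or 6, below the median of 9.

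The summed pileup of Hox peaks was 10 in wild type over 200 bp of peaks and 22 in knockout over 436 bp, a ratio of 2.2 that follows the number of peaks. Over the windows of all protein-coding genes the ratio was 1.17, and at the 12871 shared regions of the whole genome it was 1.09. For Hox gene intervals alone, without the 10 kb, it was 1.1.

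The shared regions nearest to each cluster differed in distance and strength. The gap between those on either side was 627 kb around Hoxa, 324 kb around Hoxb, 410 kb around Hoxc and 891 kb around Hoxd, where the clusters themselves span 106, 174, 116 and 96.9 kb. The median of all 12851 gaps between neighbouring shared regions was 53.8 kb. Of these gaps, 93.5%, 88.3%, 90.5% and 95.4% were shorter than those around Hoxa, Hoxb, Hoxc and Hoxd. A gap that holds a whole cluster cannot be shorter than the cluster, so these shares are no test. Below Hoxa the first shared region lay 143 kb away at an end of Skap2, a signalling adaptor gene, with a pileup of 16 in wild type and 29 in knockout. Above Hoxa it lay 379 kb away across the upper end of Hibadh, an enzyme gene, with pileups of 18 and 21. Below Hoxb it lay 118 kb away at Atp5g1, an ATP synthase subunit gene, with pileups of 29 and 27. The closest shared region to any Hox gene lay 31.8 kb above Hoxb1, with pileups of 7 and 10. Above Hoxc the first was 42 bp from Smug1, a DNA repair gene, and 116 kb from the cluster, with pileups of 22 and 20. Below Hoxc it lay 178 kb away and was weaker, with pileups of 4 and 7. Below Hoxd it lay inside Lnpk, 89.1 kb away, with pileups of 14 and 12, and above Hoxd 705 kb away, with pileups of 4 and 6. The 8 flanking regions thus ranged from pileups like those of the Hox peaks to several times as high.

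Promoter sequences follow for the start nearest to the Hox peaks of Hoxa, Hoxb and Hoxd among those with a RefSeq entry, and for 2 contrasts, Hoxa9, the best known Hox gene of blood progenitors, and Hoxa13, whose 300-base promoter window held the most CpG among those of the Hox genes. CpG, the dinucleotide that DNA methyltransferases act on, is in capitals. Each run is the 250 bases before a start, 5′ to 3′ on the gene's strand, from RefSeq on GRCm38.p6. Distances below are between the peak and the near edge of the run. The Hoxa10 sequence (chr6:52240855-52241104, minus strand, 7 CpG) is that of the start beside the wild-type peak, which lay 252 bp away, inside the gene. The run of Hoxd3os1 (chr2:74716131-74716380, minus strand, 4 CpG) lay 151 bp from the wild-type peak of its cluster, which is inside the gene. Hoxa7 (chr6:52218574-52218823, minus strand, 7 CpG) lay 2932 bp and Hoxb4 (chr11:96318017-96318266, plus strand, 14 CpG) 3155 bp from the knockout peak of its cluster. The nearest such run to a Hoxc peak, that of Hoxc4, was 34702 bp away and is not shown. The contrasts are Hoxa9 (chr6:52227371-52227620, minus strand, 3 CpG, 5492 bp from the knockout peak) and Hoxa13 (chr6:52260881-52261130, minus strand, 35 CpG, 20278 bp from the wild-type peak).
Hoxa10: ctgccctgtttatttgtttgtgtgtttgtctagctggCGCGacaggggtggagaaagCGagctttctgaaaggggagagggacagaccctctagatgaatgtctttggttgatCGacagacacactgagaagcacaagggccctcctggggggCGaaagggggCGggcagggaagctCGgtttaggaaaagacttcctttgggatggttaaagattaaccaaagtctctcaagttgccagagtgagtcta
Hoxd3os1: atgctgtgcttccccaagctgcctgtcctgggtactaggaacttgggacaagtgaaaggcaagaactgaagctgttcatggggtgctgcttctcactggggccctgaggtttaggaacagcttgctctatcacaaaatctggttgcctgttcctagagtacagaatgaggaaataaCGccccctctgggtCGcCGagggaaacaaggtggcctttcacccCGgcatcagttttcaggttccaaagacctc
Hoxa7: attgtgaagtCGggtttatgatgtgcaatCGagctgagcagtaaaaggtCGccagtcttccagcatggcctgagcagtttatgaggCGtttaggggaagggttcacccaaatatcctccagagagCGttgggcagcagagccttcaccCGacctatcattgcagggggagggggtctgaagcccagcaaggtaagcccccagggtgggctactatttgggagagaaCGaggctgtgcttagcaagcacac
Hoxb4: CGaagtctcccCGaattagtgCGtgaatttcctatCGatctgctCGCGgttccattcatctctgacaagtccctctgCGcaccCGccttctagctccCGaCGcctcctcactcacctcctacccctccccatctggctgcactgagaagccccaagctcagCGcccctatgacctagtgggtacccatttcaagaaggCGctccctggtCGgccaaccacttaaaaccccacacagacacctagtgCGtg
Hoxa9: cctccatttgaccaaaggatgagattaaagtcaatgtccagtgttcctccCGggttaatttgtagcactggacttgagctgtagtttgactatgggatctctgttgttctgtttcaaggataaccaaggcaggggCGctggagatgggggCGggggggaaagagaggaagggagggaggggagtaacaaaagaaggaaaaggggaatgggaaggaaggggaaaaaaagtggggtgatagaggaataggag
Hoxa13: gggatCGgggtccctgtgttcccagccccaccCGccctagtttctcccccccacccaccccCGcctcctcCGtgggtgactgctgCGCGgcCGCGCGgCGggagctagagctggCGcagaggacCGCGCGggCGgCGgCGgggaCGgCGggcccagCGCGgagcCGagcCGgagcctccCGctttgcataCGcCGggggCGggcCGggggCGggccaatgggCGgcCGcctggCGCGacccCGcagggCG

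The Hox promoter windows examined held no peaks, and most of them were rich in CpG. RefSeq promoter windows of 300 bases, 250 before the start to 50 after, were given for 22 of the 39 genes, 24 windows in all. No peak of either list overlapped any of the 24 (exact upper bound 14.2%), against 28.2% of 21045 windows of protein-coding genes for the wild-type list and 30.0% for the knockout list. Of the 24, 17 held 10 or more CpG, from 10 in Hoxb1 to 45 in Hoxa13. Among the 12060 windows with 10 or more CpG over all genes, 46.2% were overlapped by a wild-type and 49.1% by a knockout peak. The median window held 14.5 CpG at Hox genes and 13 over all genes. DNA methylation itself was not measured in these libraries. Genes with no window given include Hoxa4, Hoxb2, Hoxb3, Hoxb5, Hoxb6, Hoxb7, Hoxb9, Hoxb13, Hoxc5, Hoxc6, Hoxc8, Hoxc9, Hoxc10, Hoxc11, Hoxc12 and Hoxc13. Peaks near these genes are therefore not counted against a start here, among them those at Hoxc10, Hoxc6 and Hoxb3. The knockout peak at Hoxc10 lay 108 bp from the lower end of that gene, within the 250 bases a window spans before a start. The strand of Hoxc10 was not given, so whether a window there would hold this peak cannot be told.

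**Figure D3:**
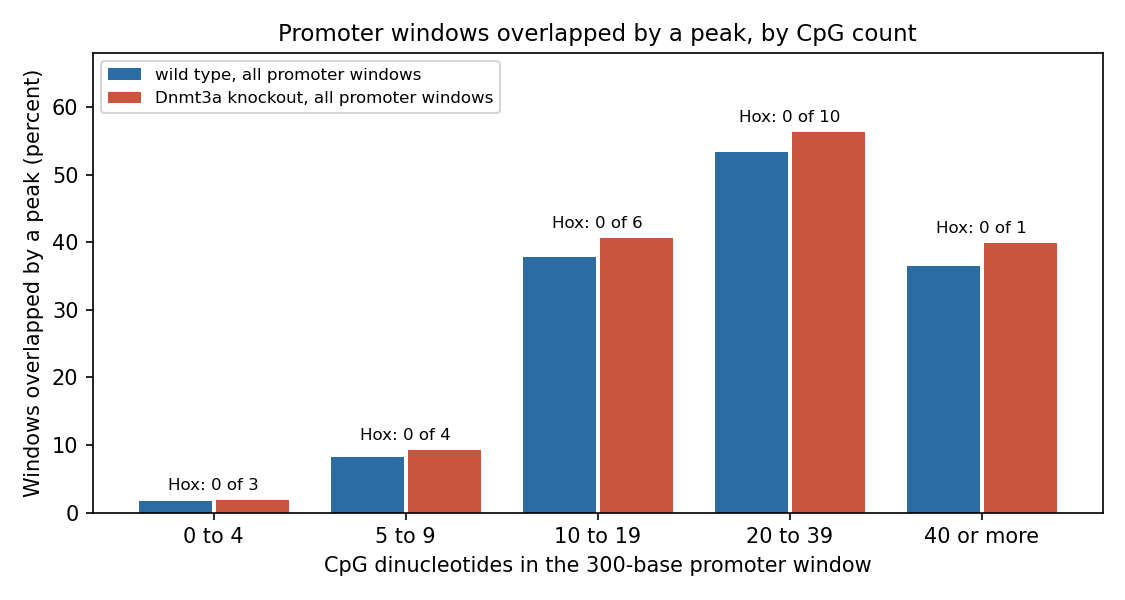
Share of promoter windows of protein-coding genes overlapped by a peak (percent), by the number of CpG dinucleotides in the 300-base window, for wild type (blue) and knockout (red). The text above each pair of bars gives the overlapped Hox windows in that class, 0 in every class, including 0 of 10 in the class of 20 to 39 CpG, where 53.4% and 56.3% of all windows were overlapped.

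Exact matches of 8 short motifs were counted on both strands of the windows, and no motif contains another. CCAAT, the core that the factor NF-Y reads, stood in 15 of 24 Hox windows (62.5%) and in 38.5% of all windows. GATAA, the core of the GATA factors that direct mast cell development, stood in 7 (29.2%), among them Hoxa9 and an internal start of Hoxa10, against 22.5%. CACGTG, the E-box read by MITF and MYC among others, stood in 5 (20.8%) against 7.91%. All 5 were windows of the Hoxd cluster (Hoxd1, Hoxd4, Hoxd10, Hoxd11 and Hoxd13), and no window of the other clusters held it. GGGCGG, a GC box, stood in 10 (41.7%) against 46.7%. CCGGAA, an ETS core, stood in 2 (8.33%) against 18.9%, TATAAA in 4 (16.7%) against 12.7%, TTTATTG in 2 (8.33%) against 3.71% and TGACGTCA in 0 against 2.26%. The letters describe the windows only, and none of these windows held a peak.

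Hox clusters also carry microRNA genes, transcribed with their Hox neighbours. The mature 5p sequences of the miR-10 and miR-196 families, from RefSeq, are shown because each family has members of 1 seed in several clusters, with the seed (bases 2 to 8) in capitals. Mir615, in Hoxc, has a seed of its own and lay 15.5 kb from the nearest knockout peak and 138 kb from the nearest wild-type peak.
miR-10a-5p: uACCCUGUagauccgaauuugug
miR-10b-5p: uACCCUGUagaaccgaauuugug
miR-196a-5p: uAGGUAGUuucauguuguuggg
miR-196b-5p: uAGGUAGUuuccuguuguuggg
Mir10a, between Hoxb5 and Hoxb4, lay nearest to a Hox peak: its 5p sequence was 2.32 kb from the knockout peak in Hoxb3, with the nearest wild-type peak 82.8 kb away. Mir10b, of the same seed, lay 10.1 kb from the wild-type peak in Hoxd3 and 147 kb from the nearest knockout peak. Mir196b was 10.4 kb from a wild-type and 8.25 kb from a knockout peak. Of the 2 genes of miR-196a, Mir196a-2 beside Hoxc10 was 6.68 kb from a knockout peak, and Mir196a-1 beside Hoxb9 was 49.6 kb from one. No peak overlapped a microRNA gene of the clusters, and the share over all microRNA genes was not computed.

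Genes that work with or on Hox genes were described from lists of genes chosen for their known roles. Of 9 cofactor genes, 7 had a wild-type and 6 a knockout peak in the gene or within 10 kb, against 52.3% and 55.5% of all protein-coding genes. The exact binomial interval of each of these cofactor shares includes the share of all genes (29.9 to 92.5% for knockout). Of their 21 regions, 14 were shared (66.7%; interval 43.0 to 85.4), against 55.1% of all regions. Meis1, the cofactor of Hoxa9 in blood progenitors, had 4 shared regions and 1 of each unshared class, with pileups up to 19 in wild type and 22 in knockout. Pknox1 had 2 shared and 1 knockout-only region, Pbx3 1 of each class and Pbx2 2 shared regions.

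Of 20 genes that set Hox expression, 18 (90%; interval 68.3 to 98.8) had a peak in each list, against 52.3% and 55.5% of all protein-coding genes. Of their 42 regions, 20 were shared (47.6%; interval 32.0 to 63.6), against 55.1% of all regions. Mllt3, a subunit of elongation complexes, had the most regions, with 3 in each unshared class and 1 shared. Kdm6b, a demethylase gene that opposes Polycomb, had 2 shared and 3 knockout-only, and Dot1l, a histone methyltransferase gene, 2 shared and 1 of each unshared class. Ezh2, the Polycomb methyltransferase gene, had 1 of each class. Psip1, the chromatin tether of the Mll complex, had 2 wild-type-only regions, 1 knockout-only region and 0 shared.

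The 20 genes of the chromosome around the clusters gave 19.4 wild-type and 16.3 knockout peaks per Mb of window, against 11.1 and 12.7 for all protein-coding genes. A wild-type peak lay in or within 10 kb of 16 (80%) and a knockout peak of 14 (70%), against 52.3% and 55.5% of all genes. Of 34 regions, 23 were shared (67.6%; interval 49.5 to 82.6), against 55.1% of all regions. Jazf1, above Hoxa, had 5 shared regions and 1 of each unshared class. Skap2 had 2 shared and 1 of each other class, and Nfe2, a blood transcription factor gene above Hoxc, had 4 shared regions with pileups up to 28 and 27. Nfe2l1 had 3 shared regions, and Cbx1 1 of each class. A list of 89 other homeobox genes, most of them known for patterning tissues other than blood, shared 3 genes (Cdx1, Cdx2 and Cdx4) with the regulator list and 2 (Evx1 and Evx2) with the flanking list. Of the 89, 14 (15.7%; interval 8.88 to 25.0) had a wild-type and 16 (18.0%; 10.6 to 27.5) a knockout peak within 10 kb. These shares overlapped in interval with those of Hox genes in both lists. The other homeobox genes had 14 shared regions among 23, where Hox genes had 0 among 6. Of their 72 promoter windows, 0 were overlapped by a wild-type and 1 by a knockout peak, against 28.2% and 30.0% of all windows. Of the 72, 63 held 10 or more CpG, a class where 46.2% and 49.1% of all windows were overlapped. The lack of peaks at the 24 Hox windows was thus not particular to Hox genes.

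**Figure D4:**
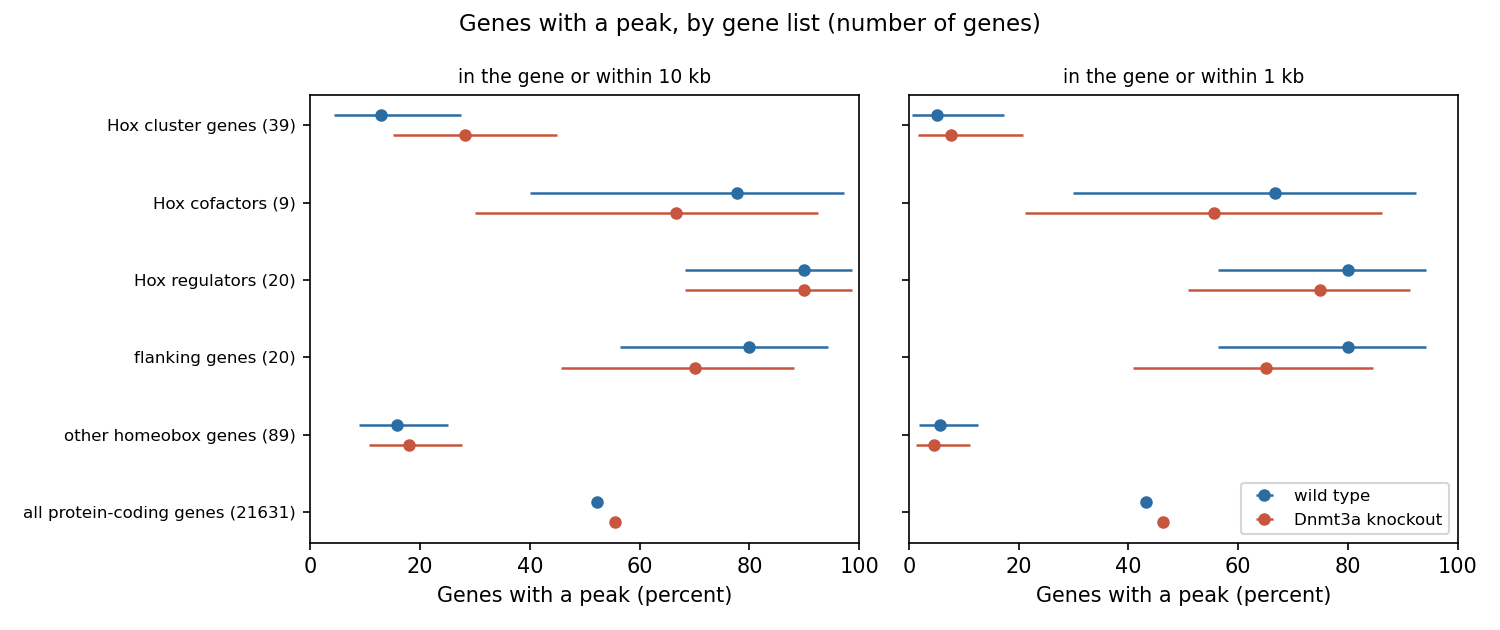
Share of genes (percent) with a peak in the gene or within 10 kb (left) or 1 kb (right), by gene list with its number of genes, for wild type (blue) and knockout (red); bars are exact binomial 95% intervals over genes, which cover counting error only. Hox genes and other homeobox genes lie below all protein-coding genes in both panels, and cofactors, regulators and flanking genes above.

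The cell type was checked on marker genes. Of 12 mast cell markers, 11 had a peak within 10 kb in each list, against 52.3% and 55.5% of all protein-coding genes, with Hdc lacking in wild type and Fcer1a in knockout. The counts for wild type and knockout were 4 and 2 of 4 basophil markers, 4 and 4 of 6 stem and progenitor markers and 4 and 5 of 7 macrophage markers. They were 6 and 7 of 8 for erythrocytes and megakaryocytes, 4 and 5 of 9 for neutrophils, 2 and 3 of 6 for B cells and 4 and 5 of 7 for T and NK cells. The shares of all protein-coding genes, 52.3% and 55.5%, are the background for each of these counts too. The part of other cells in the Hox peaks was not tested.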

How the data were processed

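ATAC-seq peak lists of 1 wild-type and 1 Dnmt3a knockout culture were used. Per the labels' protocols, a buffer with 0.1% Igepal released the nuclei, Tn5 cut them, and single reads of 50 bp were sequenced to a stated depth of 10 M. The submitters' processing notes name the tools Trimmomatic, Bowtie2 and MACS2 and the builds mm10 and GRCm38. The sources used here do not give versions, parameters or any Tn5 shift, which would move peak edges by a few bases. The authors deposited 1 peak list per sample with a score (10 times the −log10 q), a fold enrichment and 2 significance values, the −log10 p-value and the −log10 q-value. The fold was read as a ratio of pileup to background after adding 1 to each. The deposited fold and −log10 p gave a whole-number pileup for 100% of peaks (tolerance 0.001).

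Peaks sharing at least 1 bp were merged into regions and assigned to gene intervals of GRCm38.p6, which carry no exons. The lists hold no read totals. No genome sequence was used, so peak sequences are not shown. Python 3.11.15, NumPy 2.4.6, pandas 2.3.3, SciPy 1.17.1 and Matplotlib 3.10.9 were used. On simulated data, classes of 600 sites and pileups of 793 peaks were recovered in full (100%), which checks the code only. Members and gene lists were chosen with earlier results of these data known. The rule named all 39 Hox genes, and up to 5 genes with the most regions from the cofactor, regulator and flanking lists; some of these are not reported here. Alternatives changed the window, the peak threshold, the list length, the overlap and the merging.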

Additional observations from a re-analysis of the deposited data

How the results depend on the processing

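No paired analysis was possible because there was only 1 library of either genotype. No shared Hox region was found with any setting that kept the windows at 10 kb or less. A window of 50 kb added 1 shared region (12.5% of 8) and the nearest-gene rule 1 of 7 (14.3%), each time the region above Hoxb1. The knockout-only share of unshared regions stayed between 50% (gene intervals alone) and 66.7%. Requiring a −log10 q of 10 on both sides left 0 peaks, hence 0 Hox genes with a wild-type and 0 with a knockout peak and no share or ratio.

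Window size set the number of genes reached. Against 5 genes with a wild-type and 11 with a knockout peak, there were 2 and 2 with gene intervals alone, 2 and 3 with 1 kb, 21 and 27 with 50 kb and 3 and 5 by the nearest gene. The ratio of summed pileups, 2.2 as reported, was 1.10 with gene intervals alone, 1.6 with 1 kb, 1.45 with 50 kb and 1.88 by the nearest gene. A −log10 q limit of 5, on all peaks or for unshared regions alone, and equal numbers of peaks each removed the Hoxc10 peak. Each left 3 knockout peaks, 9 genes and a ratio of 1.7. Reciprocal overlap, summit distance and merging changed none of these values. The cause of these shifts is the setting itself. The low pileups, 5 or 6, limit every statement on single Hox peaks.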
